A study of Mus musculus with 598 samples.

Results

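Single mouse cells positive for a Mesp1-GFP reporter were compared between 2 stages of gastrulation, E6.75 and E7.25, where E stands for the embryonic day. The comparison uses 42.98% of the 598 cells of the series, namely all wild type cells of the more deeply sequenced of 2 library sets. They are 89 cells at E6.75 (14.9% of the 598) and a larger group at E7.25 (28.1% of the 598). The other library set holds 83 wild type cells at E6.75, wild type cells at E7.25 (28.9% of the 598) and 85 knockout cells at E6.75, and the knockout cells were not used. GEO's labels give the stage, the genotype as WT or KO and the reporter. No treatment, strain, litter, embryo or pool is named there, nor is the gene that the knockout lacks. All cells share the reporter, so they are a chosen fraction of the embryo and not a sample of all its cells.

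No label names the sets, and reads of 8 genes tell them apart: Foxe1, Kcnk12 and Dusp15, with the homeobox, SOX and POU factor genes Vax1, Six3, Hoxd13, Pou3f3 and Sox3. A cell belongs to the deeper set when 4 or fewer of these genes have a read. Of its cells, 42.4% had a read of none of the 8 genes, 40.9% of 1, 13.6% of 2, 2.72% (7 cells) of 3 and 0.389% (1 cell) of 4. No cell had reads of 5, 6 or 7 of them, and the remaining 57.02% of the series had reads of all 8, so 1 cell sits at the limit and none lies just outside it. Within each stage, the wild type cells of the deeper set carry the later cell numbers in the labels. This stage contrast was chosen with its own values in view, so its values are given as a description, and the same contrast in the other library set, which shares no cell with it, was the only check in cells that were not used for the choice.

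Mesp1 encodes a basic helix-loop-helix transcription factor that marks early mesoderm at and beyond the primitive streak, the furrow through which epiblast cells leave the epithelium during gastrulation. Streak cells depend on NODAL, WNT3 and FGF signals and express the transcription factors Brachyury (T), EOMES and MIXL1. Cells that have left the streak spread between the germ layers and give rise to cranial, cardiac, paraxial and extraembryonic mesoderm, which later express their own regulators, such as FOXC1 and FOXC2 in paraxial mesoderm and contractile genes in the heart.

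Read depth in the deeper set lay between 119078 and 4089405 reads on genes per cell at E6.75 (median 1799029) and between 112131 and 5095968 at E7.25 (median 2264484.5). The medians of the other set were 689539 and 807746. With every cell thinned to 100000 reads, the median cell of the deeper set had a read of 8336 genes at E6.75 and of 8288 at E7.25. The median share of reads on mitochondrial genes was 5.73% at E6.75 and 3.59% at E7.25, and its part in the differences was not tested. No cell of the deeper set had more than 3 CPM (counts of a gene per 1e6 reads on genes) of 3 Y-linked genes summed, whereas 63.9% and 54.9% of the cells of the other set did. For this count of 0 the limit was set at 3 cells, a share of 3.37% at E6.75 and 1.79% at E7.25. This limit takes cells as independent and is not one of the intervals described below. The extraction protocol in the labels describes bone marrow cells of adult mice, which is at odds with the embryonic samples, and 10 bone marrow markers summed to 3.69 CPM in the earlier and 4.77 CPM in the later cells, with Cd48 and Ctsg among those at 0. Each stage was treated as 1 sample because cells are not replicates, so there is no test, no p-value and no replicate check, and stage cannot be told apart from the preparation of the cells of that stage. The 95% intervals given (exact Poisson for CPM of summed reads, Clopper-Pearson for shares of cells) hold for counting error alone, because there were no molecular identifiers and reads may repeat a molecule.

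Levels below are log2(CPM + 1) in a cell, and a difference is the mean of these levels over the E7.25 cells minus the mean over the E6.75 cells. Of 10598 genes with at least 5 CPM of summed reads averaged over the stages, 355 (3.35%) were higher at E7.25 by 1 or more log2 units and 415 (3.92%) were lower by as much. A value above 0 was found for 42.4% of all measured genes and below 0 for 57.6%, and the median gene differed by -0.07. The genes described here were chosen on these differences, so nothing is read from these shares. A gene nearly absent at 1 stage could reach 5 CPM only through the other stage, so its direction was fixed by this rule. When reads were summed over cells before taking the ratio, the split was 438 higher and 190 lower, and in the other library set the means per cell gave 401 higher genes (3.78%) and fewer lower ones (1.54%). Of the 415 genes lower per cell, 6 were not lower in summed reads (T, Cldn6, Cdh1, Cfc1, Otx2 and Lhx1), which are given below on both scales. None of the 355 higher genes was lower in summed reads. The labelled cell identity was present at both stages: Mesp1 (chr7:79792241-79793788, minus strand, GRCm38) had a read in 98.9% of cells at E6.75 and 99.4% at E7.25 (95.5% and 96.4% after thinning), and its difference was 0.20. Its level ranged from 0 to 10.71 with a median of 8.45 at E6.75 and from 0 to 11.30 with a median of 8.75 at E7.25, so the stages overlapped almost entirely.

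The E7.25 cells of the deeper set fell into a low-numbered and a high-numbered run by their cell numbers. When they were split at the middle of their numbers in the labels, a split made after the values were seen, the 84 low-numbered and the 84 high-numbered cells differed by 1 or more in many genes, with 4.37% of the measured genes higher and 2.93% lower in the high-numbered run. The E6.75 cells, split in the same way, gave 1.38% and 0.425%. Eomes, a T-box gene needed for mesoderm and endoderm, was among the streak genes that showed the split. Its level had a median of 8.93 in the low-numbered run and of 4.58 in the high-numbered one, with no cell there above 7.99. Gsc, a homeobox gene of the anterior streak, had a read in 85.7% of the low-numbered and 7.14% of the high-numbered cells, and Hoxb1, a homeobox gene of the posterior body, in 44.05% and 95.2%. Median depth was 2264484.5 and 2212958 reads, and the median mitochondrial share 4.17% and 3.14%. The labels do not say what the order of the cell numbers stands for, and whether the runs are embryos, pools, plates or regions of the embryo was not tested. Against all E6.75 cells, 2.75% of genes were higher and 3.93% lower in the low-numbered run, and 5.42% were higher and 6.25% lower in the high-numbered one. Each mean over all E7.25 cells given below is therefore a mean over unlike runs, and the values of the runs, always low-numbered before high-numbered, are given beside the genes and lists for which they part most. In the other set the runs of the E7.25 cells also differed, with 7.91% of genes higher and 0.491% lower in the high-numbered run.

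**Figure D1:**
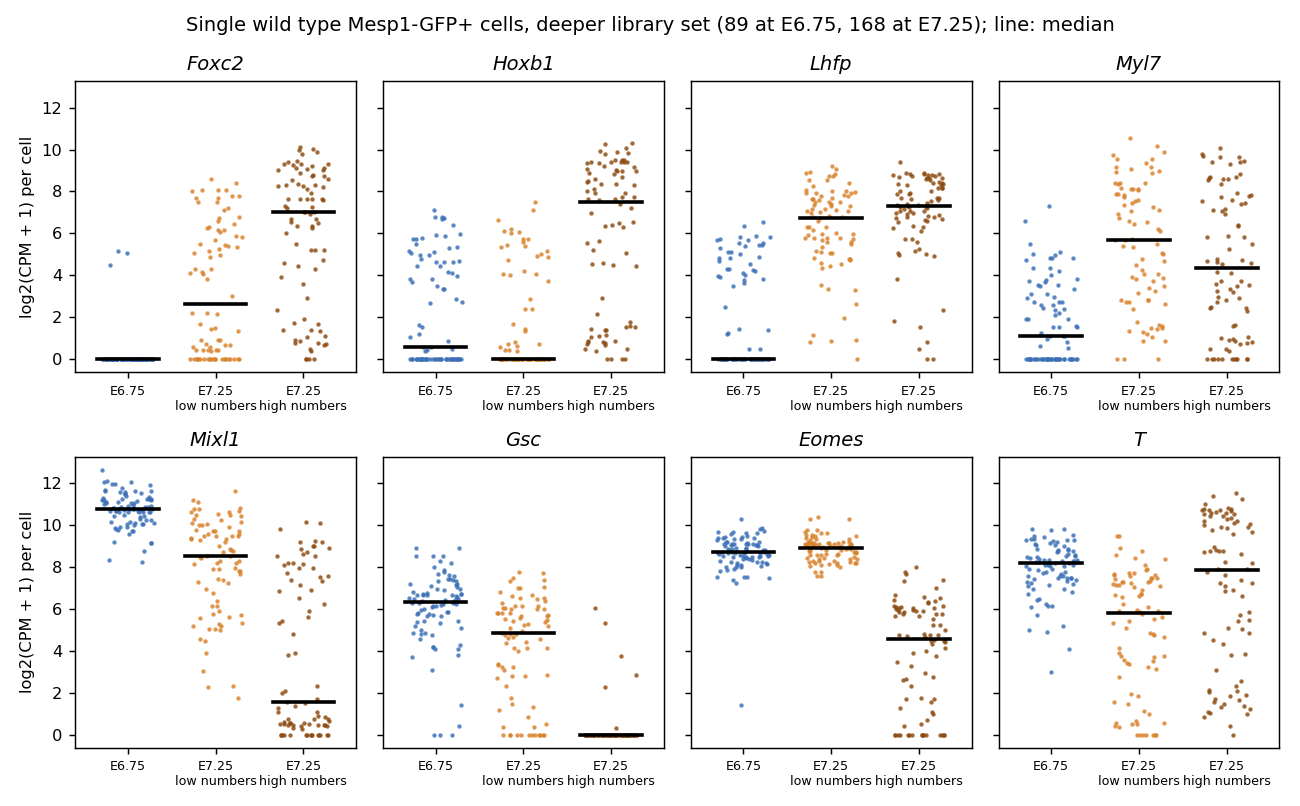
Level of 8 genes in each cell of the deeper library set, as log2(CPM + 1) on the vertical axis, with the E6.75 cells (blue), the low-numbered (orange) and the high-numbered run (brown) of the E7.25 cells in each panel, 1 point per cell and a line at the median. Foxc2 sits at 0 in all but 3 E6.75 cells and has a median of 7.03 in the high-numbered run, while Eomes has medians of 8.93 and 4.58.

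Mixl1, which encodes a paired-type homeobox factor of the streak (chr1:180693043-180697034, minus strand), had the most negative difference of the genes named by the rule, -4.85. At E6.75 every cell held it, at a lowest level of 8.25, a median of 10.79 and a highest level of 12.64. At E7.25 the lowest was 0, the median 7.27 and the highest 11.63. At E7.25, 63.7% of cells lay below the lowest E6.75 cell and none lay above the highest. The runs had medians of 8.53 and 1.54, and differences of -2.65 and -7.04. Summed Mixl1 reads were 1925 CPM (interval 1918 to 1932) over the earlier cells and 375 CPM (373 to 377) over the later ones. The spread over cells was also wider at E7.25, with an SD of 3.78 against 0.82, and only 4 E7.25 cells lay above the E6.75 median.

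The list of streak transcription factors had 13 measured members, of which 7 were lower by 1 or more and 2 were higher, with a median of -1.01 by means per cell but -0.06 in summed reads. In the low-numbered run 5 were lower and the median was 0.069, and in the high-numbered run 9 were lower and it was -1.22. In the other library set 5 were lower and none was higher (median -0.98). Gsc, which also marks the organizer, differed by -3.79, with a median level of 6.33 at E6.75 and 0 at E7.25. Gsc had a read in 96.6% of cells at E6.75 and in 46.4% at E7.25, or 93.3% and 34.5% after thinning. The differences of its runs were -1.83 and -5.74. Evx1, a homeobox gene of the posterior streak, differed by -3.76 and went from 181.9 to 48.02 CPM. Evx1os, a non-coding RNA read from the opposite strand, differed by -3.25. Evx1 (chr6:52313498-52318378, plus strand) and Evx1os (chr6:52308389-52314832, minus strand) overlap and the strand setting of the counting is not given in the sources used here, so reads of the pair cannot be told apart. Eomes differed by -2.30 (445.8 to 252.8 CPM), or by 0.21 and -4.82 in the runs, and Sp8, a zinc finger factor, by -1.90. Mesp2, the close relative of Mesp1 that acts in somite formation, was higher by 1.48 (41.3 to 120.2 CPM), and Nkx1-2, a homeobox gene of the caudal epiblast, by 1.04 (runs 0.07 and 2.01). Sp5 (-0.86), Snai1 (-0.36), Foxh1 (0.76) and Mesp1 stayed within 1.

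T was the member in which means per cell and summed reads parted. Its level was 3.01 at the lowest, 8.18 at the median and 9.83 at the highest in E6.75 cells, and 0, 6.64 and 11.52 in E7.25 cells. Of the later cells 41 lay below every E6.75 cell and 28 lay above every E6.75 cell, and all 28 of the latter were in the high-numbered run, in which T had 624.3 CPM against 101.6 CPM in the low-numbered run. The difference of the means was -2.01 (runs -2.95 and -1.08), while summed reads were 333.2 CPM in the earlier cells and 373.8 CPM in the later ones. Lhx1, a LIM homeobox gene of nascent mesoderm, had a difference of -1.01 with 437.7 and 454.8 CPM, but it was higher by 1.22 in the low-numbered run and differed by -3.25 in the high-numbered one.

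NODAL is the TGF-beta family ligand that patterns the streak, and its own gene was among those lower at E7.25. Nodal (chr10:61417972-61425338, plus strand) had a read in 65 of 89 cells (73.03%, interval 62.6 to 81.9) at E6.75 and in 28 cells (16.7%, 11.4 to 23.2) at E7.25. After thinning these shares were 53.9% and 9.52%. Its level reached 8.19 at E6.75, with a median of 4.18, and 7.34 at E7.25, with a median of 0, and the difference was -2.79, with much the same in the runs (-2.67 and -2.91). The 250 bases upstream of its start in the RefSeq promoter table (chr10:61417722-61417971, plus strand, GRCm38.p6) are shown because the gene is a signal at the head of the pathway described here, and hold a T-box core (GGTGTG, printed in capitals as CACACC since it lies on the opposite strand) at position -17 from the start.
Nodal: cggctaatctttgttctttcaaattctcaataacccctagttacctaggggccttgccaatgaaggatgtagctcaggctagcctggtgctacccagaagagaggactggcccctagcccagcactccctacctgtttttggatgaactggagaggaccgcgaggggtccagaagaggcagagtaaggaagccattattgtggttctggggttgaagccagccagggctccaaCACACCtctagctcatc

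Of 15 measured members of the NODAL pathway, 4 were lower by 1 or more, 4 were higher and 7 stayed within 1, with a median of 0.43. The lower members besides Nodal included the co-receptor gene Tdgf1 (-2.63, from 996.2 to 508.3 CPM, runs -0.16 and -5.09) and Cfc1, a related co-receptor gene, whose difference was -1.11 (runs -0.02 and -2.21) although its summed reads were 45.9 and 47.3 CPM. The higher members were the signal transducer Smad3 (2.13, from 12.6 to 42.2 CPM) and 3 secreted antagonists. Cer1 was higher by 1.96, Lefty2 by 1.52 and Lefty1 by 1.22, but in the low-numbered run Cer1 (0.89) and Lefty1 (0.38) stayed within 1. Cer1 was carried by few cells at both stages, since the 10 cells with most of its reads held 99.7% of them at E6.75 and 71.5% at E7.25. The receptors Acvr1b, Acvr2a and Acvr2b and the transducers Smad2 and Smad4 stayed between -0.32 and 0.74.

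Genes of the epiblast, the pluripotent epithelium from which the streak cells come, were lower in 6 of 13 measured members and higher in 1, with a median of -0.85 (-0.50 in summed reads), and in the runs 3 and 7 were lower (medians -0.40 and -1.24). In the other library set 4 were lower and 1 was higher. Nanog, a homeobox factor of pluripotent cells (chr6:122707489-122714633, plus strand), differed by -3.17. Its level had a median of 5.49 and a highest value of 8.76 at E6.75 and of 0.78 and 6.95 at E7.25, with 0 as the lowest at both stages, so the groups overlapped, but only 10.7% of E7.25 cells lay above the E6.75 median. Pim2, a serine/threonine kinase gene, differed by -3.85 and L1td1, an RNA-binding protein gene of pluripotent cells, by -3.40. Fgf5 differed by -1.25 (runs -0.43 and -2.07), and Otx2, a homeobox gene, by -1.02 (runs 0.33 and -2.37) although its summed reads were 170.9 and 171.5 CPM. Tdgf1, named above, is also on this list. Pou5f1, the gene of OCT4, differed by only -0.77 (402.8 to 312.8 CPM) and had a read in every cell of both stages. Dppa5a, a gene of pluripotent cells named by the size of its difference, stood at -2.93 and was low in nearly all E7.25 cells, with a highest level of 5.51 against a median of 5.24 at E6.75. The upstream window of Nanog (chr6:122707239-122707488, plus strand, GRCm38.p6) is shown because it holds a pair of overlapping matches to a FOXH1 motif (AATNCACA on either strand), FOXH1 being the transcription factor through which NODAL signals act, with matches at positions -31 and -27 in capitals.
Nanog: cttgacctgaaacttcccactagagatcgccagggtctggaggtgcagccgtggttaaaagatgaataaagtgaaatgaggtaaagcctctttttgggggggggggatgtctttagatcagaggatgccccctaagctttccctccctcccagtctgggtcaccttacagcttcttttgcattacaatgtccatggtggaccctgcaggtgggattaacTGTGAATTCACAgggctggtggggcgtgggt

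Epithelial genes were lower in 8 of 13 measured members and higher in none, with a median of -1.12 by means per cell and -0.34 in summed reads. In the other library set 3 were lower and 2 were higher (median -0.45), and in the runs 8 and 6 were lower (medians -1.26 and -0.99) and 1 was higher in each. Esrp1, a regulator of epithelial splicing, had the most negative difference, -2.92, and its share of cells with a read was 76.4% at E6.75 and 19.6% at E7.25 after thinning (85.4% and 30.4% before). Epcam, a cell adhesion gene, differed by -1.77 (222.6 to 99.4 CPM), the protease inhibitor gene Spint2 by -1.29, the tight junction gene Cldn7 by -1.17, Perp by -1.12 and the desmosome gene Dsp by -1.04. Cdh1, the gene of E-cadherin, differed by -1.37 but had 36.7 CPM at E6.75 and 41.8 CPM at E7.25, and Cldn6, another tight junction gene, differed by -1.98 with 52.3 and 82.2 CPM. For Cdh1 and Cldn6 most reads came from few cells at both stages. The 10 cells with most reads held 69.2% of the Cdh1 reads and 96.1% of the Cldn6 reads at E7.25, and 61.4% and 67.3% at E6.75. Since 10 cells are a larger share of the smaller E6.75 group, these percentages are not on the same footing. Cdh1 differed by -2.39 in the low-numbered run and -0.36 in the high-numbered one. Krt8 and Krt18, the simple keratin genes, stayed within 1 (0.68 and 0.18).

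Genes of the mesenchymal state moved less. Of 12 measured members 3 were higher by 1 or more and none was lower, with a median of 0.37, and in the other library set 1 was (median 0.52). These were Pdgfra, a growth factor receptor of mesoderm (from 82.2 to 172.7 CPM), Twist1 (1.24, from 3.42 to 9.94 CPM) and Zeb2 (1.01), both transcription factors of epithelial to mesenchymal transition. Fn1, the gene of fibronectin (0.43), Cdh2, the gene of N-cadherin (0.30), and Vim (0.49) stayed within 1. The runs parted, with 2 of the 12 members higher and none lower in the low-numbered run (median 0.52). In the high-numbered run 4 were higher and 2 lower (median 0.016).

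Genes of paraxial and presomitic mesoderm were the list with most members higher, 12 of 15 measured, with none lower and a median of 1.69, beside -0.07 for all genes. The list holds 21 genes. Members nearly absent at E6.75, such as Foxc2 and Foxc1, were measured only through their reads at E7.25, so the count leans to higher genes. In summed reads the median was 3.04, and in the other library set 9 were higher and the median was 1.22. In the low-numbered run 7 of the 15 were higher (median 0.98) and in the high-numbered run 14 (median 2.78). Foxc2, a forkhead factor of this tissue (chr8:121116171-121118895, plus strand), was the clearest. Only 3 of the 89 E6.75 cells had a read of it (3.37%, interval 0.701 to 9.54), with a highest level of 5.17, whereas 85.1% of the E7.25 cells did (78.8 to 90.1), with a median of 5.24 and a highest level of 10.12. After thinning the shares were 3.37% and 63.1%. As many as 87 E7.25 cells (51.8%) lay above every E6.75 cell, 31 of them in the low-numbered run and 56 in the high-numbered one. Summed reads were 0.886 CPM (0.746 to 1.04) and 145.4 CPM (144.1 to 146.6), and the difference was 4.44. Its neighbour in function Foxc1 was higher by 2.09 (1.06 to 15.98 CPM).

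The Notch ligand gene Dll1, which acts in the presomitic mesoderm (chr17:15367354-15376872, minus strand), ranged from 0 to 7.80 with a median of 1.02 at E6.75 and from 0 to 10.42 with a median of 6.86 at E7.25. A group of 57 E7.25 cells lay above every E6.75 cell, and the difference was 3.59 (16.7 to 222.8 CPM). Pcdh8, the gene of paraxial protocadherin, which acts in cell movement and somite borders (chr14:79766775-79771312, minus strand), ranged from 0 to 6.26 with a median of 0 at E6.75 and from 0 to 9.75 with a median of 6.01 at E7.25, a difference of 3.36 (10.9 to 130.1 CPM). Pcdh19, another protocadherin gene, was higher by 3.72 (4.14 to 74.2 CPM). The remaining higher members were Dll3 (2.13), the T-box gene Tbx6 (1.88), the glycosyltransferase gene Lfng (1.69), the transcription cofactor gene Cited1 (1.65), Aldh1a2 (1.52), Mesp2 (1.48) and Ripply2 (1.46). Of these, Tbx6, Cited1, Aldh1a2 and Ripply2 were past 1 in the high-numbered run and not in the other, as was Foxc1, and Aldh1a2 differed by -0.01 and 3.06. Most Ripply2 reads at E7.25, 87.2%, came from 10 cells. Msgn1 (0.59), Tcf15 (0.28) and Rspo3 (0.24) stayed within 1. The upstream window of Pcdh8 (chr14:79771313-79771562, minus strand, GRCm38.p6) is shown because it was the only window among the higher genes to hold the TATA box searched (TATAAA), at position -30, in capitals.
Pcdh8: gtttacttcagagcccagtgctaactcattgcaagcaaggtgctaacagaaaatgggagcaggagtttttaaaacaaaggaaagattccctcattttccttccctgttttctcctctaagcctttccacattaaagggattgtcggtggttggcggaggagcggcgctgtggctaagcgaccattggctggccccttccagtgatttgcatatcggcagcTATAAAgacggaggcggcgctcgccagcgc

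Dll1, Dll3 and Lfng are also Notch genes, and with the receptor gene Notch1 (2.25, from 21.5 to 89.5 CPM) they made up the 4 of 11 measured Notch genes that were higher (5 in the other library set). Hes1, a transcriptional target of the pathway, was the member that was lower (-1.72, from 142.7 to 69.3 CPM, runs -0.63 and -2.80). Jag1, another ligand gene, was at 0.91 and Notch2, Notch3 and Notch4 were between 0.19 and 0.36. Of 4 measured HOX and CDX genes 2 were higher, among them Hoxb1 (1.53, runs -0.57 and 3.64), and Cdx1 was lower (-1.26). In the low-numbered run none was higher, and in the other library set 1 was higher and none lower. Hoxb1 had 18.74 CPM at E6.75 and 154.2 CPM at E7.25.

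All 4 measured contractile genes, of 18 on the list, were higher, with a median of 1.79. In the other library set 3 of them were also higher by 1 or more. Members nearly absent at E6.75 could be measured only through their reads at E7.25, so little is read from all 4 being higher. Myl7, which encodes the atrial myosin light chain of the heart (chr11:5896637-5898782, minus strand), ranged from 0 to 7.29 with a median of 1.11 at E6.75 and from 0 to 10.57 with a median of 4.91 at E7.25. There were 55 E7.25 cells above every E6.75 cell, and the difference was 3.26 (8.68 to 165.5 CPM). Actc1, the cardiac actin gene, was higher too (6.51 to 50.6 CPM), as were Tnni1, the slow troponin I gene (1.58), and the tropomyosin gene Tpm1 (1.16). In the low-numbered run Myl7 (3.71) and Tpm1 (1.04) were past 1, and in the high-numbered run all 4 were. Tnni1 had a read in 1 of 89 E6.75 cells and in 61 E7.25 cells (36.3%; 11 in the low-numbered run and 50 in the high-numbered one), or 1.12% and 26.2% after thinning. Of the transcription factors and signals of heart formation, 8 were measured, of which 1 was higher (Wnt2, 1.46), 2 were lower (Tbx3, -2.52, and Gata6, -1.43) and 5 stayed within 1, among them Gata4 (-0.39), Hand1 (-0.80) and Tbx20 (0.02). The runs parted here, with Gata6 at 0.37 and -3.23 and Tbx3 at -0.60 and -4.44. The contractile genes Tnnt2, Myl4 and others of the list were under 5 CPM and were not measured.

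Among 8 measured genes of blood and vessel precursors, 1 was lower and none was higher over all cells. In the low-numbered run 1 was higher and none lower, and in the high-numbered run 1 was higher and 2 lower. In the other library set 1 was higher and 1 lower. Lmo2 was at 0.87. Etv2, the ETS factor at the head of this lineage, differed by -1.21 (99.8 to 41.8 CPM), but was not lower by 1 in the low-numbered run. Kdr, a receptor gene downstream of it, was at 0.03 over all cells, but was higher by 2.27 in the low-numbered run (242.9 CPM) and differed by -2.21 in the high-numbered one (33.97 CPM). Of 8 measured genes of cranial and pharyngeal mesoderm 3 were lower, among them the BMP and activin antagonist gene Fst (-2.78, from 485.7 to 284.9 CPM) and the homeobox gene Six2 (-2.14). Alx1, a homeobox gene of head mesenchyme, was higher by 1.38, from 0.279 to 44.5 CPM. Of 13 measured genes of extraembryonic mesoderm 3 were higher (Phlda2, 1.86, Igf2, 1.34, and Foxf1, 1.03) and 2 were lower (Msx1, -2.88, and Msx2, -2.12). The median of the 13 was 0.18, whereas in the other library set 6 were higher, 2 were lower and the median was 0.97.

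**Figure D2:**
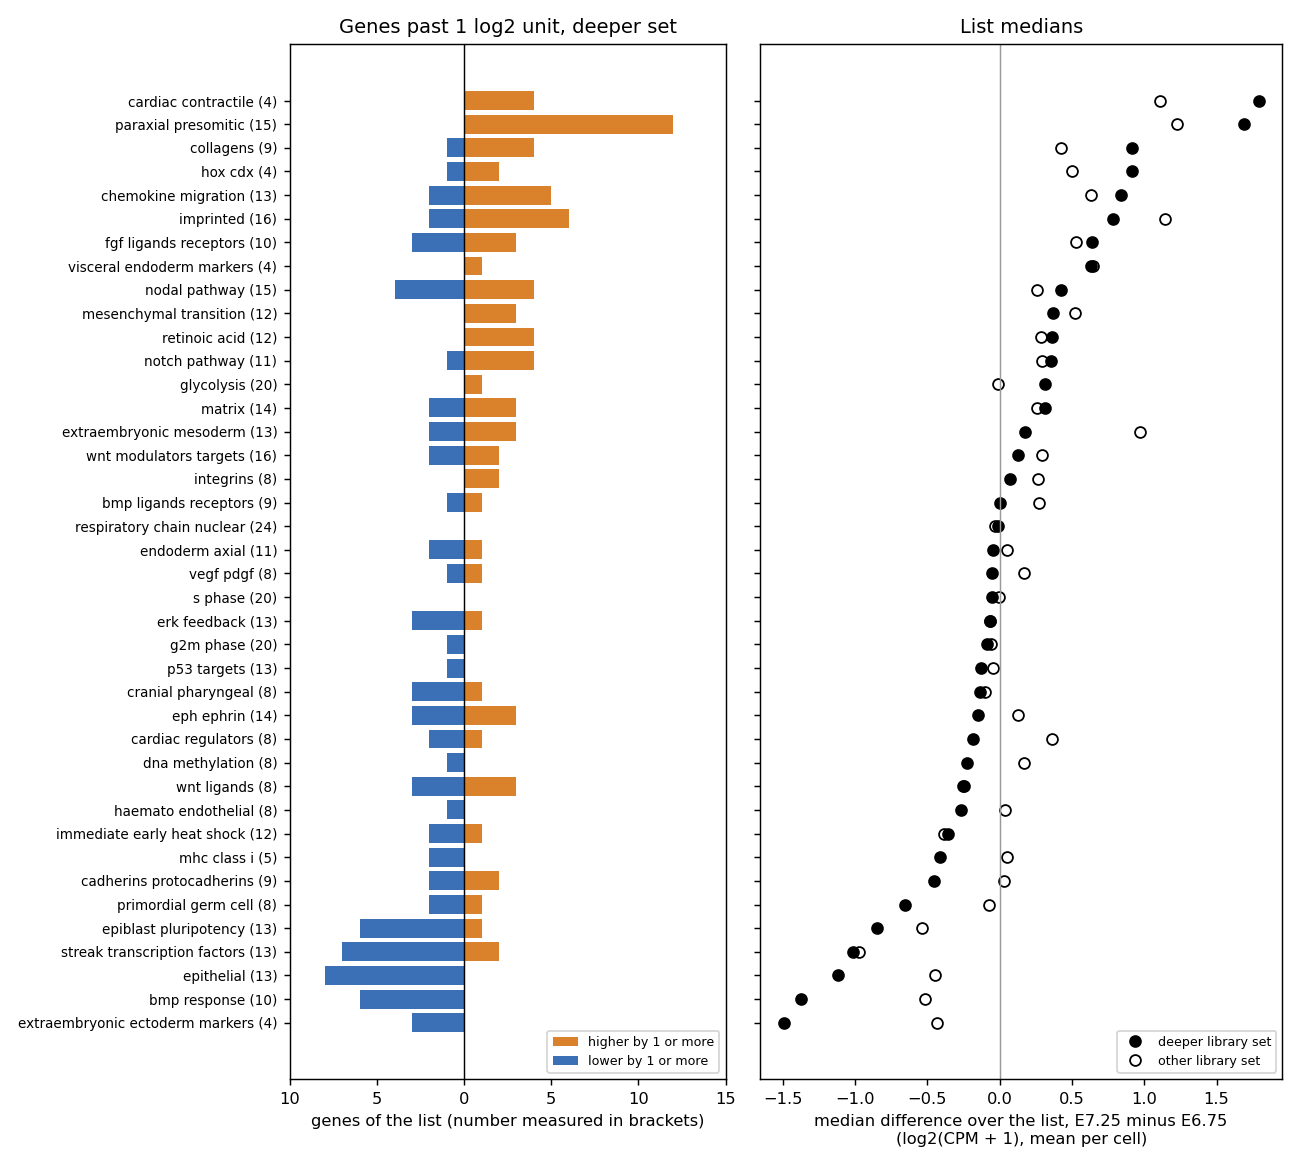
Left, for each gene list with at least 4 measured members (number in brackets), the number of genes higher (orange, right of 0) or lower (blue, left of 0) at E7.25 by 1 or more log2 units in the deeper library set. Right, the median difference over the list in log2 units in the deeper set (filled) and the other set (open), where the contractile and paraxial lists lie highest in the deeper set at 1.79 and 1.69.

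FGF ligand genes differed in both directions. Fgf8, the FGF needed for cells to leave the streak (chr19:45736798-45742915, minus strand), ranged from 0 to 9.72 with a median of 7.53 at E6.75 and from 0 to 8.64 with a median of 3.30 at E7.25. Only 3 E7.25 cells (1.79%) lay above the E6.75 median, and the difference was -3.90 (230.4 to 30.05 CPM). Fgf17, a close relative, differed by -1.43 (14.9 to 0.823 CPM) and Fgf5 by -1.25. Fgf3 was higher by 1.99 (131.1 to 266.7 CPM), and so were the receptor genes Fgfr1 (1.45) and Fgfr3 (1.07), so 3 of 10 measured members were higher and 3 lower. Fgf3 was at 3.06 and 0.91 in the runs, and Fgfr1 (0.89) and Fgfr3 (0.34) stayed within 1 in the low-numbered run. Among 13 measured feedback genes of the ERK pathway, through which FGF signals act, 3 were lower and 1 was higher. The lower ones were Il17rd, which encodes a membrane inhibitor of FGF signalling (-2.76, from 62.3 to 23.8 CPM), the phosphatase gene Dusp6 (-1.82, runs -0.47 and -3.18) and Spry4 (-1.56, runs 0.48 and -3.59). Dusp4, another phosphatase gene, was higher by 1.17.

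WNT ligand genes also differed in both directions, with 3 of 8 measured members higher and 3 lower (median -0.25). In the low-numbered run 3 were higher and 5 lower (median -1.11), and in the high-numbered run 2 were higher and 3 lower (median 0.61). In the other library set 2 were higher and 2 lower. Wnt3, the ligand that starts the streak (chr11:103774150-103817957, plus strand), had a level between 4.40 and 8.60 at E6.75 (median 7.09) and between 0 and 9.12 at E7.25 (median 4.38). As a count, 86 E7.25 cells (51.2%) lay below the lowest E6.75 cell, and the difference was -3.21 (runs -1.85 and -4.57). Wnt5b (-2.23) and Wnt11 (-1.47) were also lower, while Wnt2 (1.46), Wnt2b (1.15) and Wnt5a (1.09) were higher and Wnt3a stayed at -0.24. Of 16 measured WNT modulators and targets, the secreted antagonist gene Sfrp1 was higher by 2.55 (14.6 to 133.2 CPM) and the transcription factor gene Tcf7l2 by 1.61. The target gene Axin2 was lower (-1.55, from 31.2 to 13.5 CPM), as was the antagonist gene Frzb (-1.27). In the other library set 3 of the 16 were higher and none was lower by 1 or more, so neither Axin2 nor Frzb was past 1 there. Lef1, a transcription factor gene of the pathway, lay just under the limit of 1.

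Genes that respond to BMP signals were lower in 6 of 10 measured members and higher in none, with a median of -1.38 (-0.65 in summed reads), and in the other library set 3 were lower and the median was -0.51. In each run 6 were lower (medians -1.18 and -1.67). The list of BMP ligands and receptors, which also holds Bmper, the gene of a secreted BMP-binding protein, had 9 measured members. Of these 1 was higher (Bmp7, 1.71) and 1 was lower (Bmper, -1.58, runs -0.52 and -2.65). Id1, an inhibitor of helix-loop-helix factors, ranged from 1.18 to 10.60 with a median of 8.36 at E6.75 and from 0 to 9.93 with a median of 5.88 at E7.25, a difference of -2.78 (425.8 to 124.2 CPM). The other lower members were Msx1 and Msx2, both homeobox genes, the inhibitory gene Smad7 (-1.63), Gata3 (-1.53, but 0.12 in the other library set) and Id3 (-1.22). Bmp4 stayed at 0.45 and the receptor gene Bmpr1a at -0.07.

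Genes of the retinoic acid pathway were higher in 4 of 12 measured members and lower in none, and in the other library set 2 were higher. Crabp1, which encodes a cellular retinoic acid binding protein, was higher by 3.35 and Stra6, the gene of a retinol transporter, by 2.93. Crabp1 ranged from 0 to 7.46 with a median of 4.08 at E6.75 and from 0.61 to 9.98 with a median of 7.13 at E7.25. Stra6 had a read in 6.74% of E6.75 cells and 66.1% of E7.25 cells, or 2.25% and 45.2% after thinning. Crabp2 was higher by 1.67 (runs -0.42 and 3.76) and Aldh1a2, the gene of the main enzyme of retinoic acid synthesis in the embryo, by 1.52, with reads in 4.49% of E6.75 and 37.5% of E7.25 cells, or 3.37% and 27.4% after thinning. Cyp26a1, which encodes an enzyme that degrades retinoic acid, was at -0.71 over all cells with 486.1 and 640.6 CPM, and at 1.55 and -2.96 in the runs.

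Of 16 measured imprinted genes 6 were higher and 2 were lower, with a median of 0.78. Nnat, a paternally expressed gene for a small membrane protein (chr2:157560078-157562522, plus strand), ranged from 0 to 7.62 with a median of 3.95 at E6.75 and from 0 to 10.78 with a median of 7.29 at E7.25, a difference of 3.57 (26.4 to 250.2 CPM). Mest, another paternally expressed gene, was higher by 2.84 (76.5 to 472.2 CPM), the maternally expressed non-coding RNA H19 by 2.47, Phlda2 by 1.86, the growth factor gene Igf2 by 1.34 and Ndn by 1.21. The maternally expressed non-coding RNAs Meg3 (-1.51) and Rian (-1.14), which lie in the same imprinted cluster, were lower. The upstream window of Nnat (chr2:157559828-157560077, plus strand, GRCm38.p6) is shown because it holds a T-box core, GGTGTG, in capitals at position -115.
Nnat: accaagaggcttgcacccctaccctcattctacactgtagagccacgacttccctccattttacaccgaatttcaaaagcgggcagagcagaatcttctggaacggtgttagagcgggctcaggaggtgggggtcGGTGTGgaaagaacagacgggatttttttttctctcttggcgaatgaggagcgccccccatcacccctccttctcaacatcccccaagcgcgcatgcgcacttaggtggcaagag

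Genes of the surroundings of the cell were mixed. Lama1, which encodes a laminin chain of basement membranes, was higher by 3.15 and had a read in 13.5% of cells at E6.75 and 76.8% at E7.25, or 8.99% and 61.3% after thinning. Of 14 measured matrix genes, Sparc (1.52) and Fbln1 (1.10) were higher too, and Lama5 (-1.47) and the hyaluronan synthase gene Has2 (-1.41, runs -0.76 and -2.05) were lower. Of 9 measured collagen genes 4 were higher, namely Col4a2 (2.03), Col4a1 (1.58), Col23a1 (1.58) and Col13a1 (1.38), and Col18a1 was lower (-1.78). Among 13 measured genes of chemokine signals and guided migration, 5 were higher and 2 lower. Aplnr, the receptor gene for apelin and ELABELA (also called Apela), was higher by 2.20 (171.9 to 587.7 CPM), while the ligand genes Apln (-2.22) and Cxcl12 (-1.89) were lower. Of 14 measured ephrin and ephrin receptor genes, Epha4 (1.95), Ephb4 (1.74) and Efnb1 (1.46) were higher and Efna3 (-1.98, runs -0.21 and -3.76), Epha1 (-1.46) and Epha2 (-1.37) were lower.

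The gene with the highest difference of those named by size belongs to none of these pathways. Lhfp, which encodes a tetraspan membrane protein (chr3:53041528-53261679, plus strand), ranged from 0 to 6.56 with a median of 0 at E6.75 and from 0 to 9.39 with a median of 7.07 at E7.25. At E7.25, 63.1% of cells lay above every E6.75 cell, and the difference was 4.57 (12.4 to 179.7 CPM). Others that were higher encode the membrane protein Trp53i11 (3.72), the membrane skeleton protein Epb41l3 (3.30), the receptor adaptor beta-arrestin 1 (Arrb1, 3.27), the protease calpain 2 (Capn2, 2.96), the GDNF family receptor Gfra3 (2.92), the homeobox factor Irx5 (2.81), the PDZ and LIM domain protein Pdlim2 (2.68), Glipr2 (2.63), the proprotein convertase Pcsk5 (2.51), a septin (Sept8, 2.45) and Ifitm1 (2.40). Ifitm1, an interferon-induced membrane protein gene expressed in mesoderm, went from 131.6 to 559.1 CPM, and 91 E7.25 cells (54.2%) lay above every E6.75 cell. Of the 25 genes named for being higher, none had a lowest E7.25 cell above the highest E6.75 cell, so every one overlapped between the stages.

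The remaining genes named for being lower were Lzts1, a leucine zipper protein gene (-4.18, from 160.5 to 23.9 CPM), Nin, the gene of the centrosomal protein ninein (-3.87), the TNF receptor family gene Relt (-3.20), Chmp4c (-2.92) of the membrane scission machinery, the kinase gene Sgk3 (-2.91), the ribosomal protein gene Rpl29 (-2.58), the neurofilament gene Nefl (-2.55), Dennd2c (-2.49), Rhpn2 (-2.47) and the lipoxygenase gene Alox15 (-2.43). Nin had a narrow range at E6.75, from 5.22 to 9.32, and 62.5% of E7.25 cells lay below it. Rpl29 had the least spread over cells of the named genes, with an SD of 0.52 at E6.75 and 0.78 at E7.25, and no E7.25 cell reached the E6.75 median. In the other library set its difference was -0.32, so its value is uncertain, and reads of pseudogene copies were not told apart here.

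Lists of general cell functions held few genes past 1 log2 unit, as did all measured genes, of which 3.35% were higher and 3.92% lower. None of 20 S phase genes and 1 of 20 G2 and M phase genes (Cenpe, -1.01) was past it, with medians of -0.05 and -0.09. None of 24 nuclear genes of the respiratory chain was past it (median -0.02). Of 20 glycolysis genes, 17 lay above 0 (median 0.31) and 1, the lactate dehydrogenase gene Ldhb, was past 1 (1.37). In the other library set only 10 of the 20 glycolysis genes lay above 0. The 412 measured genes of the X chromosome had a median of -0.10, against -0.07 for the autosomes.

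Markers of other cell types were measured in the same cells. The 12 visceral endoderm markers summed to 152.5 CPM at E6.75 and 398.4 CPM at E7.25, with Ttr, Apob, Afp and Hnf4a at 0 at E6.75, Apoa2 at 0 at E7.25, and Apoe making up most of the sum (123.1 and 346.6 CPM). The 15 genes of endoderm and axial mesoderm summed to 206.7 and 291.3 CPM, over a range per cell of 13.03 to 2014 CPM at E6.75 and of 0.399 to 5569 CPM at E7.25. Cer1, Gsc and Nodal are on it. The 10 primitive blood markers summed to 5.80 and 19.2 CPM with Hba-x and Hbb-bh1 among those at 0 at both stages, and the 11 neural markers to 34.3 and 41.2 CPM. In the other library set the 11 neural markers summed to far more, 938.3 CPM at E6.75 and 1177 CPM at E7.25, and the cause was not tested. The 10 extraembryonic ectoderm markers summed to 498.9 and 276.5 CPM, and Eomes, which the streak also expresses, made up most of these sums. The part of these cells in the stage differences was not tested.

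The E7.25 cells differed among themselves along the same genes. For each cell, the mean level of the 25 genes named for being higher minus that of the 25 named for being lower ranged from -6.20 to -0.98 at E6.75 (median -3.50) and from -1.81 to 7.30 at E7.25 (median 2.91). These genes were chosen on these cells, so the separation itself is no result. At E7.25, 91.7% of cells lay above 0, and 6 (3.57%) lay inside the range of the E6.75 cells, all 6 of them in the low-numbered run. The medians of the runs were 1.30 and 4.20. All 50 genes were past 1 in their direction in each run. In the other library set, whose cells had no part in the choice, 90.2% of E7.25 cells and 1 of 83 E6.75 cells lay above 0, and 29 E7.25 cells (16.8%) lay inside the E6.75 range.

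**Figure D3:**
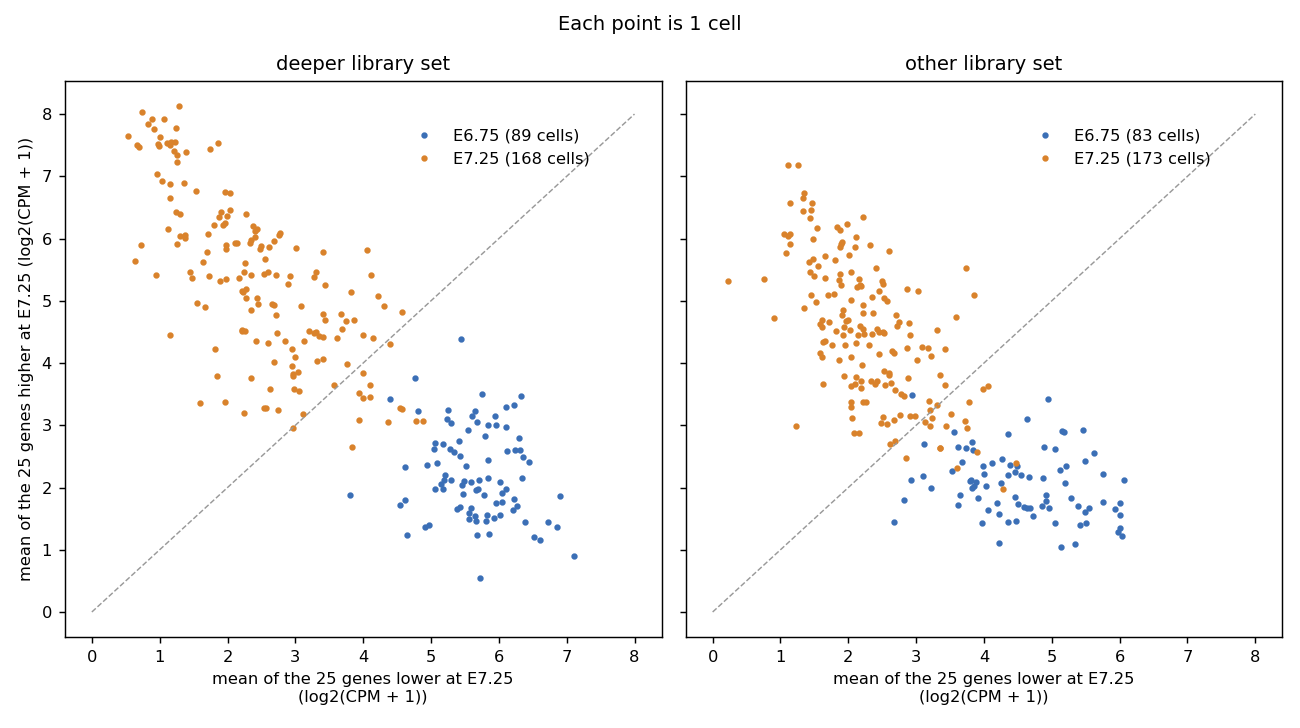
Each point is 1 cell, with the mean level of the 25 genes lower at E7.25 on the horizontal axis and of the 25 genes higher at E7.25 on the vertical axis, both in log2(CPM + 1), for E6.75 (blue) and E7.25 (orange) cells and with a dashed line where the means are equal. In the deeper set (left) 0 of 89 E6.75 cells and 91.7% of E7.25 cells lie above the line, and in the other set (right) 1 of 83 and 90.2%.

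Rank correlations over the E7.25 cells of the deeper set also pool the runs. Foxc2 and Mixl1 were opposed (Spearman rho -0.63, and -0.54 and -0.47 within the runs), and both were near rho 0 with depth (-0.07 and 0.01). Foxc2 went with Pcdh8 (0.59), Epb41l3 (0.60) and Lhfp (0.56). Mixl1 went with Evx1 (0.66), Wnt3 (0.60) and Dennd2c (0.61). T and Myl7 were opposed (-0.77, and -0.66 and -0.83 within the runs), and T went with Tbx6 (0.67, and 0.34 and 0.75). Foxc2 and Myl7 were at 0.29, and at 0.45 and 0.36 within the runs. Gsc and Eomes were at 0.72 over all cells but at 0.16 and 0.15 within the runs. These pairs were chosen after their values were seen, and the cells of each correlation share 1 library set, so the values are descriptions. Over the E7.25 cells of the other set, T and Myl7 were again opposed (-0.68), T went with Tbx6 (0.46), and Foxc2 was at 0.51 with Pcdh8, 0.54 with Lhfp, 0.27 with Epb41l3, 0.45 with Myl7 and -0.28 with Mixl1. There Mixl1 was at 0.38 with Evx1, 0.35 with Wnt3 and 0.14 with Dennd2c, and Gsc and Eomes were at 0.04.

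The same stage contrast in the other library set used cells that had no part in choosing the genes. Of the 355 genes higher in the deeper set, 96.1% also lay above 0 there, against 56.9% of all measured genes, and 47.3% were again higher by 1 or more, against 3.78% of all. Of the 415 lower genes, 344 (82.9%) lay below 0 there, against 43.1% of all, and 27.7% were again lower by 1 or more, against 1.54% of all. Only 1 gene was past 1 in opposite directions. The shared genes were 41.9% of those higher and 70.6% of those lower in the other set. Of the 25 genes named for being higher 24 were past 1 there as well, and of the 25 named for being lower 23 were, with differences of 0.52 to 4.42 and of -4.06 to -0.32. For 22 and 23 of them the difference was smaller there than in the set that had been used to choose them.

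**Figure D4:**
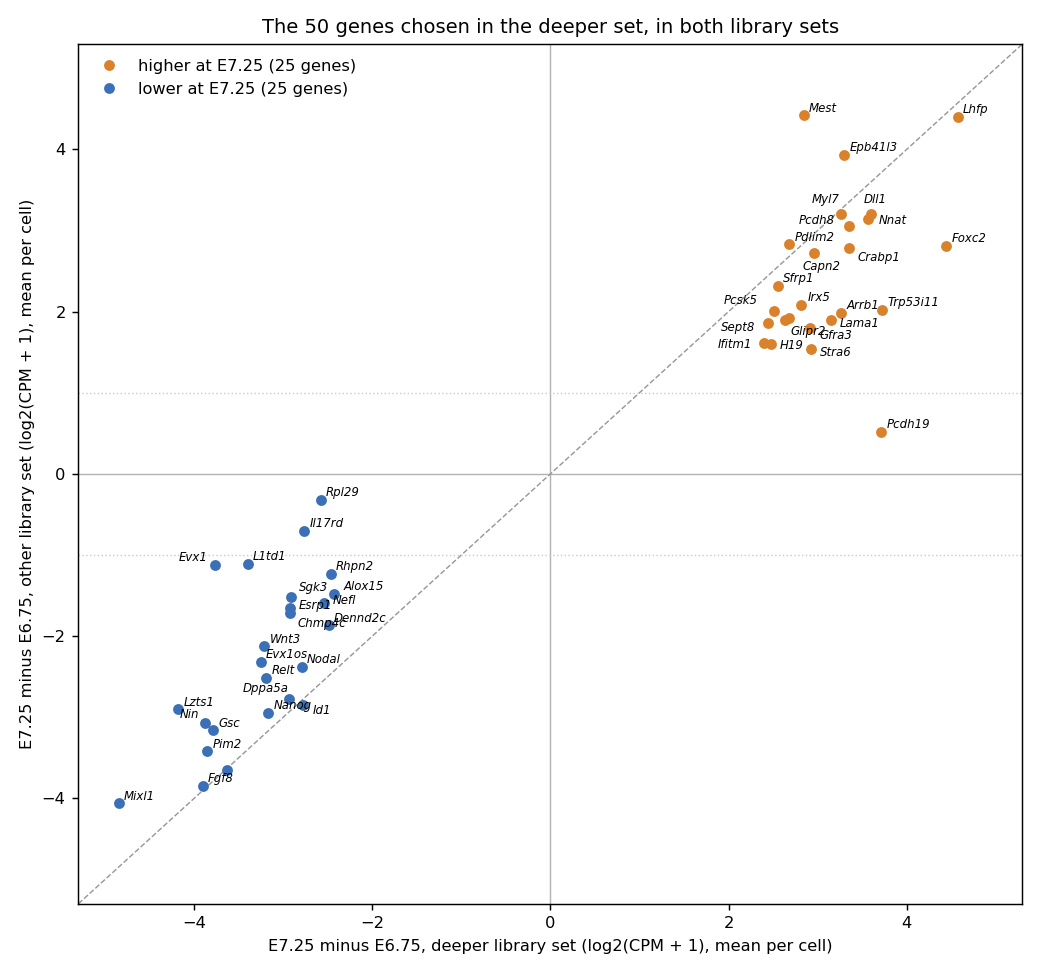
Difference between E7.25 and E6.75 (mean of log2(CPM + 1) per cell) in the deeper library set on the horizontal axis and in the other set on the vertical axis, for the 25 genes named for being higher (orange) and the 25 named for being lower (blue) in the deeper set, with equal values on the dashed line and differences of 1 as dotted lines and a name beside most of the points. All 50 points keep their sign, and Pcdh19, Il17rd and Rpl29 fall within 1 in the other set.

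The exceptions were Pcdh19 (0.52 in the other set), Il17rd (-0.70) and Rpl29 (-0.32). Pcdh19 had a read in every cell of the other set, at 95.1 and 185.5 CPM, and its level there was lower in deeper cells (Spearman rho -0.77 over the E7.25 cells), against 16 of 89 E6.75 cells and a rho of -0.02 in the deeper set. Evx1 also had a read in every cell of the other set, with a rho of -0.52 with depth, and its difference there was -1.12. The part of this in the values of the 2 genes was not tested. Some differences were nearly as large in the other set, such as those of Lhfp (4.40), Myl7 (3.20), Dll1 (3.21), Nnat (3.14), Fgf8 (-3.85) and Id1 (-2.85), and Mest (4.42) and Epb41l3 (3.93) were larger there. Foxc2 and Mixl1 were at 2.81 and -4.06. In the other set 30 E6.75 and 78 E7.25 cells had at most 3 CPM of the Y-linked genes, as all cells of the deeper set did. Over these 30 and 78 cells, 21 of the 25 higher and 20 of the 25 lower genes were past 1.

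Promoter windows of 250 bases were found in the RefSeq table for 15 of the 25 genes named for being higher and 13 of the 25 named for being lower, but Mixl1 and Foxc2 had no entry. Some windows lie far from the annotated gene start, such as those of Stra6 (65300 bases), Dennd2c (24952) and Mest (9959). A T-box core (GGTGTG on either strand) was in 5 of the 15 and 3 of the 13, against 14.5% of the 7904 measured genes with a window. Stra6 is among the 5 and Dennd2c among the 3. The FOXH1 motif (AATNCACA) was in 0 and 2, against 1.64%, the TCF/LEF core (CTTTGA) in 1 and 2, against 10.3%, and the TATA box (TATAAA) in 1 and 2, against 5.49%. A match is a description of the letters and not of a bound site, and the windows printed above were chosen for their matches.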

How the data were processed

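Single mouse cells sorted for the Mesp1-GFP reporter were sequenced, and the authors deposited raw counts of reads per gene and cell. Per the submitters' processing notes, reads were handled with GSNAP, HTSeq 0.5.3p3 and mm10. How strand was counted is not given in the sources used here. There were 40912 genes in the table, and 40254 took symbols from GENCODE M21; 0 columns lacked a sample. Counts were scaled to CPM and 1 was added before log2. Genes needed at least 5 CPM of summed reads averaged over the stages. Each stage counted as 1 sample, so no test was made. Members, the 43 gene lists and the rules were chosen with earlier results of these data known. Named genes were Mesp1, Foxc2, Mixl1, the 25 largest differences per direction (in the stage where the gene is higher, 20 CPM or more and reads in 25% of cells or more, with a summed ratio of 2 or more, without mitochondrial, Y-linked or predicted genes), and up to 6 members of each list. Some genes are not reported here. Alternatives were summed CPM, 10 CPM added, scaling factors of edgeR 4.0.16 and DESeq2 1.42.0 (R 4.3.3) and library sizes without mitochondrial genes. Thinning to 100000 reads and filters on cells and on low counts were others. Chosen after seeing the data were the other library set, its cells with at most 3 CPM of the Y-linked genes, and the E7.25 cells below and above the middle of their cell numbers. The code (Python 3.11.15, numpy 2.4.6, pandas 2.3.3, scipy 1.17.1) was tested on simulated data.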

Additional observations from a re-analysis of the deposited data

How the results depend on the processing

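Of the 10598 genes measured, 3.35% were higher and 3.92% lower, and shares below are of that number. Ratios of summed CPM gave 438 higher (4.13%) and 190 lower (1.79%) genes in place of 355 and 415. Adding 10 CPM gave 96 (0.906%) and 77 (0.727%). Keeping genes of at least 20 CPM gave 2.02% and 2.46%, fewer genes being tested. The other library set gave 401 higher (3.78%) and 1.54% lower, and its cells with at most 3 CPM of the Y-linked genes 414 and 587. The other alternatives (scaling by edgeR or DESeq2 factors, mitochondrial genes left out, thinning, cell filters, genes of at least 1 CPM) gave 344 to 384 higher and 403 to 480 lower genes. For summed CPM, the added 10 CPM, the other set and the runs below the cause was not tested. Taking the high-numbered run of E7.25 cells, a split chosen after seeing the data, gave 574 higher (5.42%) and 662 lower (6.25%) genes, and the low-numbered run 2.75% and 416 lower. The median of the streak transcription factors turned to 0.069 in the low-numbered run. Medians of 42 gene lists kept their direction and side of 1 for 25 lists under summed CPM and 27 in the other set. They did so for 26 lists in that set's cells with at most 3 CPM of the Y-linked genes, 30 in the low-numbered run and 32 in the high-numbered one. The 50 genes named by size (with Mesp1, 51) were chosen by that size and a summed ratio in these cells, so their staying past 1 within the deeper set was largely fixed by the choice. In the other set 48 of the 51 kept direction and side, and in its cells with at most 3 CPM of the Y-linked genes 41. No paired analysis was possible because the numbers in the labels are cell numbers. With 1 sample per stage, depth limits counting error only, and the spread between embryos is unknown.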

Other observations

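Other genes differed by stage without belonging to the lists described above. Psmb8, an immunoproteasome subunit gene, differed by -2.31, from 29.7 to 0.158 CPM, and Tapbp, which encodes tapasin of antigen loading, by -1.56. So 2 of 5 measured genes of MHC class I presentation were lower and none was higher (median -0.41). In each run 2 were lower, and 1 was higher in the high-numbered run. In the other library set 1 was lower and none higher, with 3 of the 5 above 0 (median 0.05). Of 12 immediate early and heat shock genes, Fos (-2.34) and Junb (-1.63) were lower and Jun (1.08) was higher. In the other library set 3 of the 12 were lower and none was higher by 1 or more. Of 8 measured genes of primordial germ cells, Prdm14 (-1.36) and Tfap2c (-1.46) were lower and Ifitm1 was higher. Dnmt3l, a cofactor of DNA methylation, differed by -1.66, but in the other library set none of the 8 measured genes of DNA methylation was past 1.

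Some genes lay past 1 on the log2 scale in the deeper library set and not in the other. The mitochondrial ribosomal RNA gene mt-Rnr1 differed by -1.51 in the deeper set (3574 to 1409 CPM) and by 0.26 in the other set (1230 to 1634 CPM). Gm12583, annotated as a processed pseudogene and chosen after its values were seen, differed by 2.79 with an SD over cells of 0.72 at E6.75 and 0.56 at E7.25. In the other set it differed by -0.08 (8.28 to 7.38 CPM), and reads of a parent gene were not told apart here. Gata3 differed by -1.53 and 0.12 in the 2 sets, and Aldh1a2 by 1.52 and 0.20. These differences between the sets were not tested.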
